A study of Mus musculus with 8 samples.

Results

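Nuclear genes for the subunits of the oxidative phosphorylation (OXPHOS) complexes were described across 4 single-cell libraries of sorted myeloid cells. Members were every gene whose symbol began with Nduf, Uqcr, Atp5, Cox4i, Cox5, Cox6, Cox7 or Cox8, or was Sdha, Sdhb, Sdhc, Sdhd or Cyc1, with pseudogenes named -ps left out. The rule used names and no measured value. It found 94 of the 32285 genes in the count matrices. By symbol, 38 of these were placed in complex I, 8 with the complex I assembly factors (the Ndufaf genes), 4 in complex II, 9 in complex III, 18 in complex IV and 17 in complex V. At least 1 unique molecular identifier (UMI, a count of 1 captured RNA molecule) was found for 93 of the 94. Cox7b2, a testis form of a complex IV subunit, had 0 UMIs, and Cox8b and Cox8c had 1 UMI each.

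OXPHOS takes place in the inner mitochondrial membrane. Complex I (NADH dehydrogenase) and complex II (succinate dehydrogenase) pass electrons to ubiquinone, complex III passes them to cytochrome c, and complex IV (cytochrome c oxidase) passes them to oxygen. Complexes I, III and IV pump protons, and complex V (ATP synthase) uses the proton gradient to make ATP. Most subunits are encoded in the nucleus and a small core is encoded in mitochondrial DNA. Neutrophils are known for few mitochondria and for a metabolism that rests on glycolysis, whereas monocytes and macrophages hold active respiratory chains.

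The cells had been sorted as CD45+, CD11b+ and Ly6Chi, the surface markers of monocytic suppressor cells of myeloid origin (mMDSCs), out of MC38 tumors, a mouse colon carcinoma, or out of blood drawn from mice with such tumors. All mice were C57BL/6J, of both sexes and young adult, and carried floxed Ythdf2 alleles. WT mice (Ythdf2 fl/fl) had no Cre, and Ythdf2-cKO mice (Lyz-Cre;Ythdf2 fl/fl) carried Cre under control of Lyz2, a gene active in cells of the myeloid lineage. Tumors were left untreated (control) or received 20 Gy of ionizing radiation (IR) in 1 dose, and cells were taken 3 days later. The libraries were blood control, blood IR, tumor control and tumor IR, and each mixed pooled cells of several WT mice with pooled cells of several cKO mice, told apart by a hashtag antibody (TotalSeq B0301 for WT and B0302 for cKO). Each of the 8 groups was therefore 1 sample. No test over samples was possible, no p-value is given, and every interval is an exact 95% interval that covers counting error only.

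The libraries held 51653956 to 87703837 gene UMIs, and 30281 barcodes were kept as cells with a hashtag label, 2284 to 5101 per group, with a median of 2844 to 3172 UMIs per cell in blood groups and 6097 to 8534 in tumor groups. In tumor libraries 5817 of 13144 and 7969 of 12927 barcodes with at least 500 UMIs had enough hashtag UMIs for a label, against nearly all in blood. The labels and the targeted gene did not match in direction. Ythdf2 was at 34.0, 34.8, 57.5 and 55.0 counts in 1000000 (CPM) in cells labelled WT and at 301.98, 335, 374 and 339 CPM in cells labelled cKO (blood control, blood IR, tumor control, tumor IR), while Lyz2, whose locus carries Cre, was at 5620.0 to 13811 CPM against 87.0 to 146 CPM. Where the deleted part of Ythdf2 lies relative to the 3′ tag was not given, so these levels do not check the deletion. Genotypes are given as labelled, and the cause of the higher Ythdf2 in cells labelled cKO was not tested. Ptprc (CD45) and Itgam (CD11b) were found in all groups, and Ly6c2 was at 652 to 1069 CPM in blood, 159.8 to 449 in control tumors and 1152 to 1484 in irradiated ones. Only 131 barcodes were kept in more than 1 library.

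Promoters are shown for the members that stood at the ends of the clearest contrast among the members, that between neutrophil-like and classical monocyte-like blood cells described further on, and for 1 partner gene. Cox6b2 and Ndufa5 were the most lowered in neutrophil-like cells, Ndufa7 and Cox8a were among the least lowered, and Cox6b1 is the widely used partner of Cox6b2 (subunit 6B of complex IV). Each run holds 250 bases before to 10 after the start that RefSeq gives in build GRCm38.p6 (mm10), read 5′ to 3′ on the strand of the gene, with the ETS motif in capitals where it was found. The positions were chr7:4753085-4753344 (minus strand) for Cox6b2, chr6:24527681-24527940 (minus strand) for Ndufa5, chr17:33824322-33824581 (plus strand) for Ndufa7, chr19:7217607-7217866 (minus strand) for Cox8a and chr7:30626105-30626364 (minus strand) for Cox6b1.
Cox6b2: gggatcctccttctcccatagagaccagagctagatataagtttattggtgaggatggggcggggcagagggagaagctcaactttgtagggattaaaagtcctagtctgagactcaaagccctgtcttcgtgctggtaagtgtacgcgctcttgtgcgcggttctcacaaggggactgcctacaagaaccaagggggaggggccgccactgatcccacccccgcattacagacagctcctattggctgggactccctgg
Ndufa5: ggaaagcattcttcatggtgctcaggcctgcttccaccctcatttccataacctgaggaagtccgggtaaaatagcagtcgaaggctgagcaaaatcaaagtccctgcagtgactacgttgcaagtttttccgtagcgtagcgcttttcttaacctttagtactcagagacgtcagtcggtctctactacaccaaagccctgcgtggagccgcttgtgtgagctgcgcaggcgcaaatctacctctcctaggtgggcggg
Ndufa7: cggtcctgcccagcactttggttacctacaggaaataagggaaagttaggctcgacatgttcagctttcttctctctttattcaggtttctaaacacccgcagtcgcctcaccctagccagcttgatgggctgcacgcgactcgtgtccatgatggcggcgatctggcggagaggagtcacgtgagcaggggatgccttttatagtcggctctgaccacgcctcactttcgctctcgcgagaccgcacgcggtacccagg
Cox8a: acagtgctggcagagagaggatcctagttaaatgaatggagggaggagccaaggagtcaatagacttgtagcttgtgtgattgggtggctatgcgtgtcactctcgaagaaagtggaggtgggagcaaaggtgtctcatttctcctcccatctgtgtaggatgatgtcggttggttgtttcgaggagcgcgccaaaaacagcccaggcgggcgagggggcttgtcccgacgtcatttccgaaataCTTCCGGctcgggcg
Cox6b1: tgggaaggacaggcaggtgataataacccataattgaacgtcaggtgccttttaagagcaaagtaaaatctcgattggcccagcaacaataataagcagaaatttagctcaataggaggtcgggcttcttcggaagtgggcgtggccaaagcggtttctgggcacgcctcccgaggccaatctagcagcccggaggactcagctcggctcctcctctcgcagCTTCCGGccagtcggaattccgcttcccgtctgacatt

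Motifs of 3 factors known to act on nuclear mitochondrial genes were searched on both strands, from 250 bases before to 50 after the start, in the 76 members that the RefSeq table held. The NRF1 motif GCGCATGCG was in 10 of 76 members (13.2%) against 1.95% of 27025 genes. The ETS motif CCGGAAG, bound by GABPA among others, was in 19 of 76 (25%) against 9.93%. The YY1 motif AAGATGGCG was in 8 of 76 (10.5%) against 1.64%. At least 1 of the 3 was in 31 of 76 members (40.8%) and in 12.7% of all genes. In the runs above, the ETS motif was on the opposite strand (CTTCCGG) at position -5 of Cox8a and at -28 of Cox6b1, counted from the start, and none of the 3 motifs was found in Cox6b2, Ndufa5 or Ndufa7. A further ETS match of Cox8a, at position 33, lies beyond the printed run. Ndufa5 and Ndufa7 have 2 RefSeq starts each, of which the more upstream was used, and the Ndufa5 run lies inside the gene as GENCODE vM21 draws it (chr6:24518666-24528013). These matches describe the sequences, and promoters of complex IV members Cox4i1 and Cox4i2 were not used here. The 3 genes of the transcription factors themselves were found in every group. Nrf1 was at 31.9, 29.5, 32.1 and 32.2 CPM in blood and 21.5, 20.6, 19.8 and 18.7 CPM in tumor. Gabpa was at 18.6, 19.1, 19.3 and 21.2 CPM in blood and 20.8, 21.9, 18.03 and 19.8 CPM in tumor. Yy1 was at 130.01, 129, 141 and 137 CPM in blood and 94.4, 93.1, 82.3 and 87.4 CPM in tumor.

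Values below are given in the order control WT, control cKO, IR WT, IR cKO unless stated. A level is in CPM, the UMIs of a gene per 1000000 gene UMIs of the group. Since 1 UMI marks 1 captured 3′ end, no length term was used when genes were compared. Several members have near-identical processed copies in the genome, and reads that fit more than 1 gene are not counted by Cell Ranger, so levels of single members are uncertain to that extent.

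The members together took a narrow range of shares over the 8 groups. The summed OXPHOS share of gene UMIs was 1.83, 1.85, 1.91 and 2.001% in blood and 2.07, 2.14, 1.85 and 1.86% in tumor. Irradiated blood lay above control blood, and control tumor lay above irradiated tumor. The lowest group was blood control labelled WT (95% interval 1.83 to 1.84%) and the highest was tumor control labelled cKO (2.13 to 2.15%). Free RNA gives a share of its own. Barcodes with 10 to 99 UMIs, too few to be taken as cells, gave 1.78% and 1.79% in the blood control and blood IR libraries and 2.17% and 2.11% in the tumor control and tumor IR libraries, so all 4 tumor groups lay below, and all 4 blood groups above, the free RNA of their own library.

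**Figure D1:**
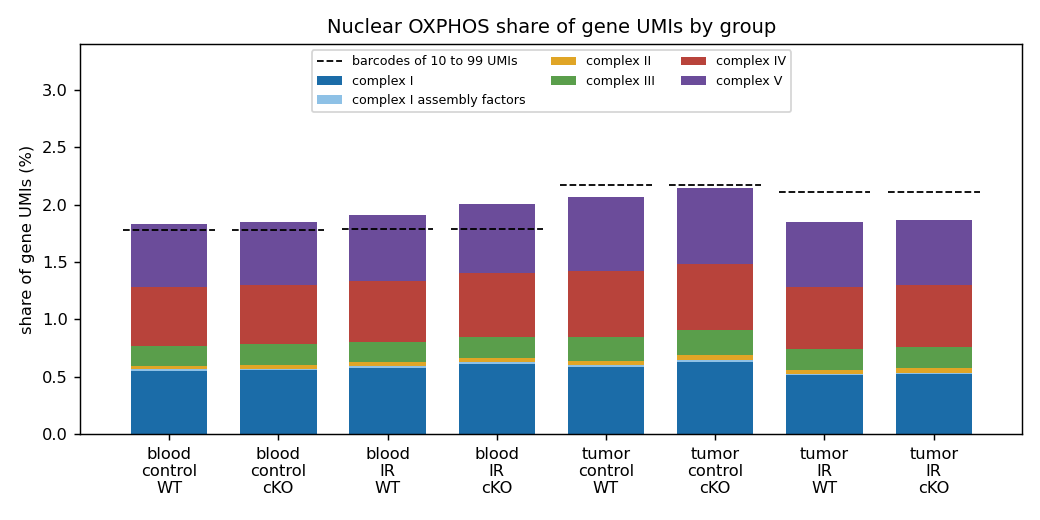
Stacked bars show the share of gene UMIs (%, axis from 0) held by nuclear OXPHOS genes in each of the 8 groups, colored by complex, and dashed lines show the share in barcodes of 10 to 99 UMIs of the same library. All groups lay between 1.83% and 2.14%, and complexes I, IV and V made up most of every bar.

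Complexes I, IV and V had similar shares, and complex II and the assembly factors had small ones. Complex I held 0.548, 0.555, 0.574 and 0.607% in blood and 0.583, 0.628, 0.513 and 0.522% in tumor. Complex V held 0.554, 0.554, 0.571 and 0.602% in blood and 0.641, 0.663, 0.563 and 0.561% in tumor. Complex IV held 0.510, 0.514, 0.532 and 0.551% in blood and 0.579, 0.573, 0.539 and 0.545% in tumor. These 3 sets were highest in tumor control except complex I, whose values in blood IR and tumor control interleaved. Complex III held 0.174, 0.180, 0.177 and 0.186% in blood and 0.207, 0.213, 0.182 and 0.185% in tumor. Complex II, the 1 complex without a mitochondrially encoded subunit, held 0.0305, 0.0327, 0.0356 and 0.0381% in blood and 0.0406, 0.0450, 0.0364 and 0.0378% in tumor. The 8 assembly factors held 0.0154, 0.0152, 0.0157 and 0.0175% in blood and 0.0152, 0.0175, 0.0122 and 0.0128% in tumor. For all 6 sets, the 2 tumor control groups were above the 2 tumor IR groups. In blood, IR groups were above control groups of the same genotype label for all 6 sets.

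A few members carried much of the total. The 20 members with most UMIs held 49.6% of all OXPHOS UMIs, the top 5 held 18.9%, and Cox4i1 alone held 5.01%. Cox4i1, the common form of complex IV subunit 4 (chr8:120668222-120674207, GENCODE vM21 on mm10), was at 846, 854, 944 and 985 CPM in blood and 1099, 1123, 950.2 and 951 CPM in tumor. Cox8a, the common form of subunit 8, was at 865, 859, 901 and 886 CPM in blood and 830.0, 785, 837 and 800.2 CPM in tumor. Cox4i1 was highest in tumor control, whereas the values of Cox8a in blood and tumor lay close together, with blood above.

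In complex V, Atp5e and Atp5l had most UMIs. Atp5e, the epsilon subunit of the central stalk, was at 808, 759, 724 and 721 CPM in blood and 601, 561, 564 and 554 CPM in tumor. Atp5l, subunit g of the membrane part, was at 727, 720.2, 719.5 and 721 CPM in blood and 561, 523, 527 and 539 CPM in tumor. Both were lower in every tumor group than in every blood group. Atp5b, the catalytic beta subunit, was at 254, 259, 301.7 and 316 CPM in blood and 469, 506, 366 and 363 CPM in tumor, with both tumor control groups highest.

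In complex III, Uqcrh, the hinge protein, was at 512, 515, 496 and 509.7 CPM in blood and 518, 476, 458 and 455 CPM in tumor. Uqcrq, a small subunit, was at 279, 293, 288 and 316 CPM in blood and 375, 383, 329 and 352 CPM in tumor. Uqcrh overlapped between tissues and Uqcrq was higher in every tumor group. Cyc1, the heme-bearing cytochrome c1, was at 54.7, 61.7, 62.1 and 65.3 CPM in blood and 110.4, 126, 90.5 and 90.8 CPM in tumor, again with no overlap between tissues.

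In complex I, Ndufa13 and Ndufa7, both supernumerary subunits, had most UMIs. Ndufa13 was at 357, 341, 376 and 378 CPM in blood and 309.7, 320.4, 292 and 279.7 CPM in tumor. Ndufa7 was at 319, 309, 314 and 309.5 CPM in blood and 271, 288, 255 and 258 CPM in tumor. Both were higher in every blood group than in every tumor group. The core subunit Ndufs1, which carries iron-sulfur clusters, was low at 19.4, 25.9, 25.5 and 26.8 CPM in blood and 23.8, 30.001, 20.0 and 23.0 CPM in tumor, and its values overlapped between tissues.

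The 4 complex II genes differed in tissue pattern. Sdha, the flavoprotein, was at 61.3, 60.7, 64.2 and 67.9 CPM in blood and 62.6, 69.4, 49.1 and 53.7 CPM in tumor. Sdhb, the iron-sulfur subunit, was at 124, 137, 146 and 158 CPM in blood and 156, 182, 149.9 and 152 CPM in tumor. Both overlapped between tissues. Sdhc, a membrane anchor, was at 36.3, 37.7, 44.4 and 49.6 CPM in blood and 77.4, 91.8, 62.6 and 67.0 CPM in tumor. Sdhd, the other anchor, was at 83.3, 90.9, 101 and 105 CPM in blood and 109.7, 107, 103 and 105 CPM in tumor. Only Sdhc among the 4 was higher in every tumor group than in every blood group.

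Among the assembly factors, Ndufaf8 had most UMIs over all groups and was at 43.5, 45.1, 47.5 and 52.5 CPM in blood and 52.4, 57.6, 45.9 and 48.2 CPM in tumor. Ndufaf7, an arginine methyltransferase that acts on a core complex I subunit, was at 49.8, 46.4, 47.0 and 55.0 CPM in blood and 13.7, 16.5, 8.88 and 8.39 CPM in tumor. Its tumor levels were all under its blood levels, and in 3 of the 4 blood groups it was above Ndufaf8. Ndufaf2, a factor that joins at a late step, was at 8.69, 7.61, 8.26 and 7.37 CPM in blood and 25.7, 31.0, 16.4 and 15.7 CPM in tumor, with every tumor group above every blood group.

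The alternative subunits Cox4i2, Cox6a2, Cox6b2, Cox7a1 and Ndufa4l2 were far below their common partners, and their tissue patterns differed. Cox4i2, the form of subunit 4 known for lung and for induction by low oxygen, was at 0, 0.0494, 0.160 and 0 CPM in blood and 8.16, 10.8, 7.23 and 9.90 CPM in tumor. It had 0, 1, 4 and 0 UMIs in blood and 180, 270, 162 and 263 in tumor. Against the floor of 3 counts per blood group, its tumor CPM was at least 64.8-fold higher in control WT and at least 67.1-fold higher in IR cKO. With 1 blood UMI, the ratio in control cKO was 218 (95% interval 38.7 to 8626), and with 4 blood UMIs it was 45.1 (17.3 to 167) in IR WT.

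Ndufa4l2, a relative of Ndufa4 that is likewise known for induction by low oxygen, was at 0, 0, 0 and 0 CPM in blood and 3.58, 1.79, 1.47 and 2.75 CPM in tumor. The 4 blood groups at 0 UMIs allow at most 0.120 to 0.148 CPM, so the tumor CPM was at least 12.1 to 28.4-fold higher. Ndufa4 itself ran the other way and was at 310.0, 308, 345 and 360.0 CPM in blood and 164, 146, 152 and 133 CPM in tumor. It is today counted as a complex IV subunit, but by symbol it was summed under complex I here, as was Ndufa4l2. Every blood group was above every tumor group for Ndufa4.

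Cox7a1, the heart and muscle form of subunit 7a, was at 0.882, 1.29, 1.20 and 1.62 CPM in blood and 5.17, 6.89, 4.69 and 7.19 CPM in tumor. Its partner Cox7a2 was at 323, 305, 340.0 and 338 CPM in blood and 374, 352, 391 and 387 CPM in tumor. Cox7a2l, a related gene, was at 300.8, 303, 306 and 325 CPM in blood and 265, 263, 203 and 212 CPM in tumor. Cox7a1 and Cox7a2l ran in opposite directions between tissues, Cox7a1 being higher and Cox7a2l lower in every tumor group.

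Cox6b2, known as a testis form, was at 12.3, 12.8, 11.4 and 14.7 CPM in blood and 5.03, 3.75, 4.91 and 4.06 CPM in tumor, and Cox6b1 was at 460.0, 473, 499 and 534 CPM in blood and 511, 478, 483 and 506 CPM in tumor. Every blood group was above every tumor group for Cox6b2, and Cox6b1 overlapped. Cox6a2, a muscle form, stayed under 2 CPM in every group, and its partner Cox6a1 was at 301.1, 296, 321 and 332 CPM in blood and 335, 345, 315 and 316 CPM in tumor. The 3 genes that encode the same mature c subunit of complex V were all higher in the tumor groups: Atp5g1 was at 161, 175, 186 and 202 CPM in blood and 361, 409, 288 and 292 CPM in tumor. Atp5g2 was at 274, 279.7, 287 and 331 CPM in blood and 498, 648, 354 and 357 CPM in tumor. Atp5g3 was at 118, 133, 139 and 149 CPM in blood and 243, 282, 188 and 197 CPM in tumor.

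**Figure D2:**
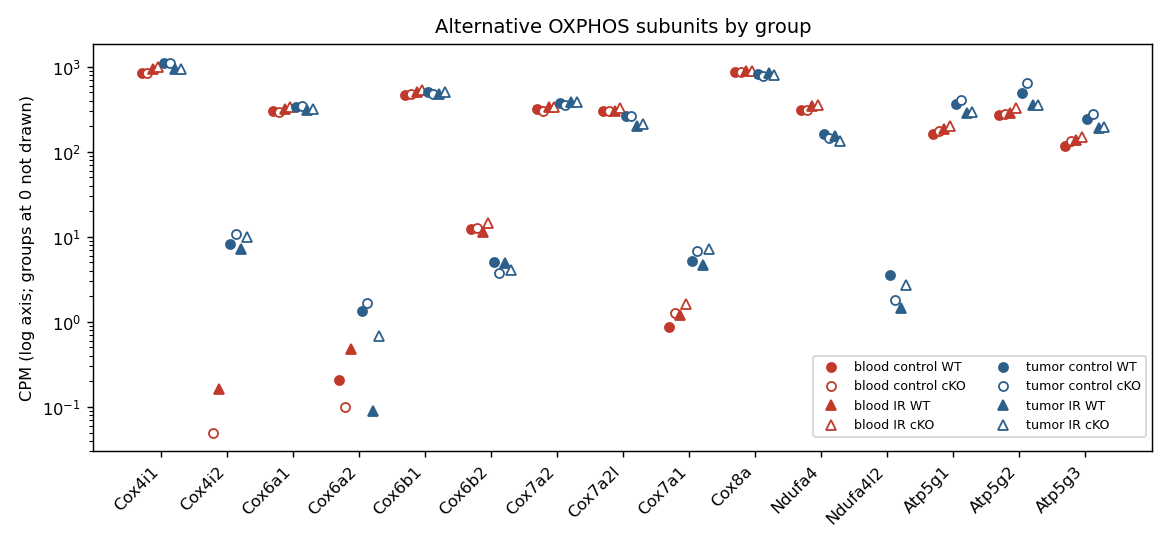
CPM on a log axis is shown for alternative OXPHOS subunits, with 1 point per group (red blood, blue tumor, circles control, triangles IR, filled WT, open cKO) and groups at 0 not drawn. Cox4i2, Cox7a1 and Ndufa4l2 lay higher in tumor, and Ndufa4 and Cox6b2 lay higher in blood.

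Over all 94 members, 31 were higher in every tumor group than in every blood group, 17 were lower in every tumor group, and 46 overlapped. This order was not counted over all genes, so it is not read as a trait of the members. For contrasts, a gene was compared where 2 groups held at least 100 UMIs together, and was called higher or lower where its CPM differed by at least 1.5-fold, with 1 UMI scaled to depth added. The same count over all genes is the background.

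Tumor and blood cells were compared within each genotype label and treatment. The log2 ratio of the summed share was 0.17 (95% interval 0.17 to 0.18) in control WT and 0.21 (95% interval 0.20 to 0.22) in control cKO. After IR it was -0.046 (95% interval -0.052 to -0.040) in WT and -0.10 (95% interval -0.11 to -0.10) in cKO. As a mean over cells, in which every cell counts alike, the IR ratios were 0.26 and 0.30, and under TMM factors the 4 ratios were 0.047, 0.022, -0.00066 and -0.037. Of 89 members compared, 23 were higher and 4 lower in control WT, against a background of 32.2% higher and 25.1% lower. In control cKO 28 were higher and 4 lower (background 38.7% and 24.9%). In IR WT 6 were higher and 7 lower (24.4% and 27.9%), and in IR cKO 6 were higher and 9 lower (24.4% and 27.6%). The share called higher among members was below that of all genes in each contrast.

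Cox4i2, Cox7a1, Cox5a, Ndufaf2 and Ndufv3 were higher in tumor in all 4 contrasts, and Ndufab1 and Atp5g1 in 3 of 4. Cox5a, a subunit on the matrix side of complex IV, was at 265, 292, 306 and 325 CPM in blood and 535, 533, 488 and 529 CPM in tumor, with log2 ratios of 1.02, 0.87, 0.67 and 0.70. Ndufab1, the acyl carrier protein of complex I, was at 66.6, 66.0, 69.1 and 73.1 CPM in blood and 146, 178, 102 and 111 CPM in tumor, with log2 ratios of 1.14, 1.43, 0.56 and 0.60. Tumor groups of both genes lay above all blood groups. Ndufv3, a small subunit at the NADH end of complex I, was at 98.6, 117, 108 and 113 CPM in blood and 182, 196, 163 and 175 CPM in tumor. Ndufaf2 had 1.56, 2.02, 0.98 and 1.08. Ndufa4, Ndufa3, Cox6b2 and Ndufaf7 were lower in tumor in all 4. Ndufaf7 had log2 ratios of -1.85, -1.49, -2.40 and -2.70, and Ndufa3, a small complex I subunit at 343, 329, 276 and 287 CPM in blood and 143, 124, 154 and 155 CPM in tumor, had -1.26, -1.41, -0.84 and -0.89. The cells present differed with tissue. S100a8 and S100a9 together took 6.54 to 9.52% of gene UMIs in blood groups and 0.0176 to 0.162% in tumor groups.

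Which cells carried these differences was looked at in cell classes. They were set by gates on the summed UMIs of fixed marker genes per 10000 UMIs of a cell, with no OXPHOS gene, Lyz gene or Ythdf2 among the markers. A gate takes a range of a score, so classes are called X-like. Neutrophil-like cells made up 68.4 to 73.5% of the cells of blood groups, although the sort was for Ly6Chi cells, and 0.740 to 8.43% of tumor groups. Classical monocyte-like cells made up 12.3 to 16.6% in blood and 17.2 to 48.1% in tumor. Macrophage-like cells made up 20.1 to 45.1% in tumor, where 14.0 to 22.5% of cells passed no gate. Check genes that did not set the gates were over 2-fold higher inside the class for 5 of 5 in neutrophil-like cells of both tissues, 5 of 6 in tumor macrophage-like cells and 3 of 4 in tumor classical monocyte-like cells. In blood classical monocyte-like cells, 2 of 4 were (Thbs1 and Mgst1 were not), and likewise 2 of 4 in blood nonclassical monocyte-like cells (Itgal and Pglyrp1 were not), of which 27.6% lay within 1.5-fold above the gate. Blood cells past the macrophage gate met only 2 of 6 and were left without a name.

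Near the gates, within 1.5-fold above, lay 167 of 12689 neutrophil-like and 76 of 2598 classical monocyte-like blood cells (1.32% and 2.93%), and 690 of 4497 classical monocyte-like and 657 of 3754 macrophage-like tumor cells (15.3% and 17.5%). In blood classical monocyte-like cells the median neutrophil score was 4.62 and in tumor macrophage-like cells the median classical monocyte score was 12.7 UMIs per 10000, so the tumor classes shade into each other.

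Neutrophil-like cells had the lowest OXPHOS share of the named classes in every group. In blood it was 1.16, 1.05, 1.14 and 1.05% in neutrophil-like cells and 2.58, 2.74, 2.73 and 2.83% in classical monocyte-like cells. The classical monocyte-like cells lay above their library's free RNA and the neutrophil-like cells below it. Nonclassical monocyte-like cells of blood had 2.24, 2.31, 2.24 and 2.41%. NK cell-like cells of blood, which are lymphocytes inside the sort, had 2.27, 2.26, 2.31 and 2.22%. In tumor, classical monocyte-like cells had 2.02, 2.09, 1.89 and 1.90% and macrophage-like cells had 2.11, 2.23, 1.88 and 1.85%. Dendritic cell-like cells of tumor had 2.05, 1.97, 1.95 and 1.86%. Tumor neutrophil-like cells had 0.881, 1.04, 0.752 and 0.719%, but control groups held only 20 and 26 of them.

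**Figure D3:**
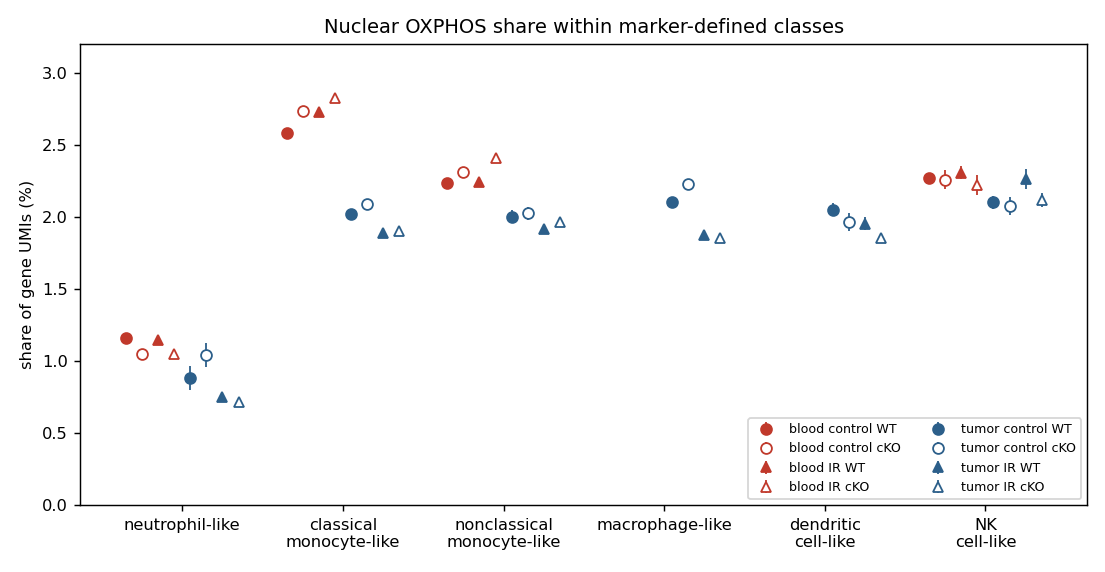
The OXPHOS share of gene UMIs (%, axis from 0) is shown within marker-gated classes, 1 point per group with exact 95% Poisson intervals (red blood, blue tumor, circles control, triangles IR, filled WT, open cKO). Blood neutrophil-like cells lay at 1.05 to 1.16%, and blood classical monocyte-like cells at 2.58 to 2.83%.

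The log2 ratio of neutrophil-like to classical monocyte-like cells in blood was -1.15 (95% interval -1.16 to -1.14) in control WT, -1.38 (95% interval -1.39 to -1.37) in control cKO, -1.25 (95% interval -1.26 to -1.24) in IR WT and -1.43 (95% interval -1.44 to -1.42) in IR cKO. Of the members compared, 77 of 84, 76 of 83, 79 of 84 and 81 of 85 were at least 1.5-fold lower and 0 were higher. The background lower was 50.6%, 52.9%, 51.5% and 53.3%. The member medians were -1.45, -1.67, -1.57 and -1.83 beside -0.60, -0.68, -0.64 and -0.72 over all genes compared. Depth differed with class: the median cell held 2494 to 2642 UMIs in neutrophil-like and 10070.0 to 13027 in classical monocyte-like cells. Within neutrophil-like blood cells the share was 1.10% up to 2000 UMIs, 1.01% from 2000 to 3000, 0.865% from 3000 to 6000 and 1.70% in the 659 cells above 6000.

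In 83 members compared in all 4 blood groups, 74 were lower in all 4. All 9 complex III members, 33 of 37 complex I members, 15 of 17 of complex V, 11 of 12 of complex IV, 4 of 4 assembly factors and 2 of 4 of complex II were among them. The share of all genes lower in all 4 groups together was not counted. In single groups it was 50.6 to 53.3%. The median of the mean log2 ratio was -1.79 for complex I, -1.45 for assembly factors, -1.03 for complex II, -1.60 for complex III, -1.21 for complex IV and -1.71 for complex V. The members named next were chosen after their values were seen, as the ends of that list.

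Cox6b2 was at 2.33, 2.13, 2.02 and 0.970 CPM in the neutrophil-like cells against 25.6, 23.7, 23.8 and 27.6 CPM in the classical monocyte-like cells, with log2 ratios of -3.39, -3.39, -3.50 and -4.67. Ndufa5, a subunit of the matrix arm of complex I, was at 11.02, 12.7, 10.4 and 5.46 CPM in the neutrophil-like cells against 91.2, 111, 101 and 103 CPM in the classical monocyte-like cells, with log2 ratios of -3.04, -3.11, -3.28 and -4.20. In every group the neutrophil-like value of both genes was lower by over 3 on the log2 scale. Ndufc2, a small membrane subunit of complex I, had log2 ratios of -2.95, -3.11, -2.92 and -3.44, and Ndufaf4, an assembly factor, had -2.79, -3.80, -2.65 and -3.13. Atp5g1 had -2.86, -3.003, -2.80 and -3.30.

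At the other end, Ndufa7 was at 304, 274, 300.4 and 294 CPM in the neutrophil-like cells against 353, 362, 335 and 330.0 CPM in the classical monocyte-like cells, with log2 ratios of -0.22, -0.40, -0.16 and -0.17. Cox8a was at 836, 767, 826 and 756 CPM in the neutrophil-like cells against 915, 989, 986 and 1015 CPM in the classical monocyte-like cells, with log2 ratios of -0.13, -0.37, -0.25 and -0.43. For both, the 2 classes differed by under 1.5-fold in every group. Ndufb9 (mean log2 ratio -0.29) and Atp5l (-0.36) were the other 2 members that were lower by under 1.5-fold in all 4 groups. Sdha and Sdhd had means of -0.66 and -0.66, whereas Sdhc had -2.14. So members of a single complex were lowered to unequal degrees, complex I from -3.41 to -0.24.

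**Figure D4:**
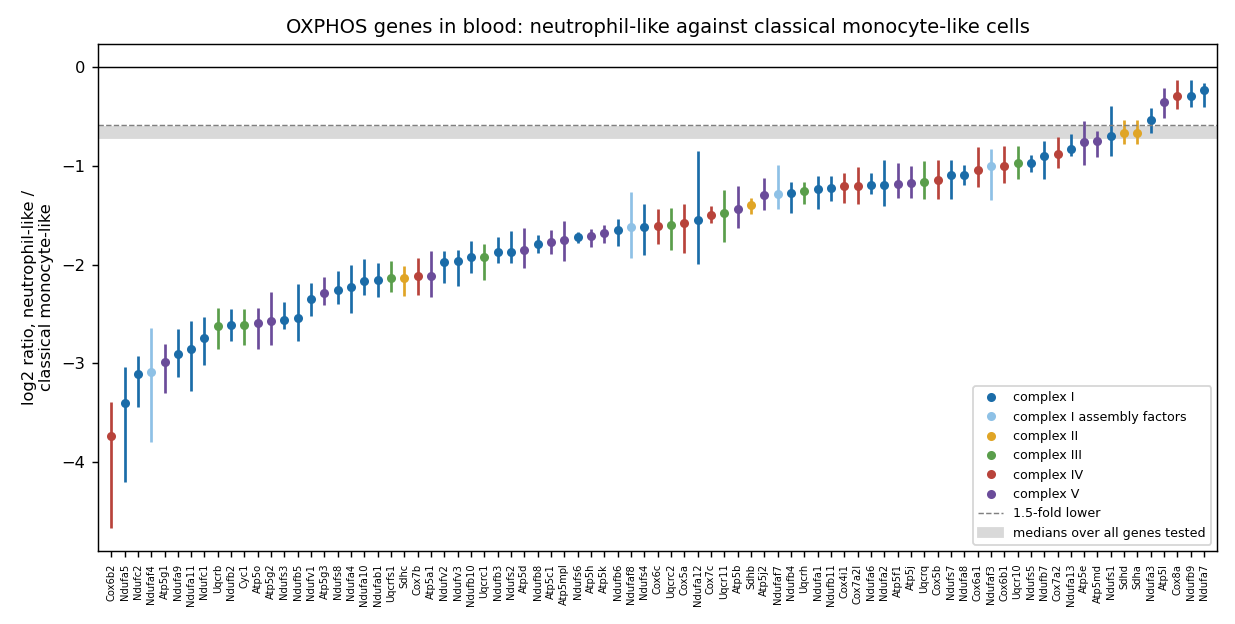
Each of 83 members compared in all 4 blood groups is shown with the mean log2 ratio of CPM, neutrophil-like over classical monocyte-like (point), and the range over the 4 groups (line), colored by complex, with the medians over all genes in gray and 1.5-fold lower dashed. The members run from -3.74 (Cox6b2) to -0.24 (Ndufa7), and none had a positive mean.

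Other lists of the pathway differed between the same 2 classes. Mitochondrially encoded OXPHOS genes took 0.346, 0.367, 0.354 and 0.300% of UMIs in neutrophil-like and 1.68, 1.89, 1.76 and 1.91% in classical monocyte-like cells, and all 13, 12, 13 and 12 genes compared were lower. Cytosolic ribosomal protein genes took 6.07, 5.002, 5.66 and 4.796% against 20.6, 20.7, 19.5 and 20.1%. They were lower for 82 of 89, 84 of 90, 81 of 90 and 82 of 89 and higher for 1, 2, 2 and 2. Of mitochondrial ribosomal protein genes, 72 of 74, 71 of 73, 73 of 75 and 74 of 76 were lower. TCA cycle genes, which feed complexes I and II, were lower for 12 of 13, 11 of 12, 10 of 13 and 12 of 13. Assembly factors outside the rule were lower for 17 of 23, 14 of 18, 23 of 29 and 22 of 27 and higher for 2 in each group. Cytochrome c and other electron carriers were lower for 5 of 7 and higher for 2 of 7 in each group. Glycolysis genes were lower for 5, 6, 6 and 6 of 15 and higher for 2 of 15 in each group, with sums of 0.318, 0.380, 0.332 and 0.347% against 0.347, 0.392, 0.426 and 0.453%. Regulators of mitochondrial genes were lower for 2, 3, 2 and 2 of 7 compared and higher for 1, 2, 1 and 1. The glycolysis and regulator lists were thus nearer to even than the OXPHOS members, whose lowered share was above that of all genes.

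Within classical monocyte-like cells the tissue order turned. The tumor-to-blood log2 ratio of the OXPHOS share was -0.36 (95% interval -0.37 to -0.34) in control WT and -0.39 (95% interval -0.40 to -0.37) in control cKO, where the ratio over all cells was above 0. It was -0.53 (95% interval -0.54 to -0.52) in IR WT and -0.57 (95% interval -0.58 to -0.56) in IR cKO. Members were lower for 25 of 84, 24 of 84, 43 of 86 and 42 of 88 (background 34.0%, 34.2%, 40.7% and 40.3%), and among members compared only Cox7a1 and Cox4i2 were higher, both in IR cKO. Ndufaf7 had -2.37, -2.55, -3.14 and -3.27 and Ndufa4 had -1.10, -1.32, -1.61 and -1.77 on the log2 scale. Over all cells, giving both tissues the same class mix put the control ratios at -0.19 and -0.14, and leaving out neutrophil-like cells put them at -0.20 and -0.21. The classes matched held 90.8% (WT) and 83.8% (cKO) of control tumor UMIs. They took in the unnamed blood cells past the macrophage gate, cells in no class, and only 20 and 26 control tumor neutrophil-like cells.

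The alternative subunits were spread over the classes in different ways. Pooled over groups, Cox4i2 was at 15.1 CPM in tumor macrophage-like, 8.86 in tumor classical monocyte-like and 0.131 in blood classical monocyte-like cells. It was at 0.561 CPM (1 UMI) in tumor dendritic cell-like cells and had 0 UMIs in NK cell-like cells of either tissue. Cox7a1 was at 9.03 CPM in tumor macrophage-like cells and 0.102 in blood neutrophil-like cells. Cox6b2 was at 25.3 CPM in blood classical monocyte-like, 1.91 in blood neutrophil-like and 1.37 in blood NK cell-like cells. Ndufa4 was at 642 CPM in blood NK cell-like and 98.4 in tumor macrophage-like cells. Ndufa4l2 was at 2.67 CPM in tumor macrophage-like cells and at 72.0 CPM (41 of its 230 UMIs) in the few tumor barcodes set aside as mixed. Mixed barcodes passed certain combinations of gates, given under the processing of the data.

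Irradiated and control cells were compared within tissue and genotype label. In blood the log2 ratio of the summed share was 0.057 (95% interval 0.051 to 0.063) in WT and 0.11 (95% interval 0.11 to 0.12) in cKO. In tumor it was -0.16 (95% interval -0.17 to -0.16) in WT and -0.20 (95% interval -0.21 to -0.19) in cKO. As a mean over cells, the blood ratios were -0.035 and -0.029. In blood 0 of 87 members were called higher or lower in WT (background 1.73% higher and 3.02% lower) and 0 of 87 in cKO (2.23% and 2.99%). In tumor WT 0 of 90 were higher and 5 lower (5.91% and 14.7%), and in tumor cKO 1 was higher and 13 lower (12.4% and 29.3%). The member medians in tumor were -0.18 and -0.24 beside -0.14 and -0.18 over all genes. With backgrounds this low in blood, the counts of 0 there are near the share of all genes.

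In blood, the lowest log2 ratios in WT were those of Ndufa3 (-0.31), Ndufaf1 (-0.26) and Cox7c (-0.22), and the highest were those of Ndufs1 (0.40), Ndufa9 (0.35) and Uqcrc1 (0.30). In cKO, Cox7c (-0.21), Ndufa3 (-0.20) and Atp5k (-0.15) were lowest and Ndufaf6 (0.42), Sdhc (0.39) and Ndufa9 (0.37) highest. None reached 1.5-fold.

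In tumor, the assembly factors of complex I stood lowest. Ndufaf4, which takes part in early assembly, was at 12.9, 14.1, 13.2 and 14.9 CPM in blood and 13.8, 19.3, 7.41 and 7.72 CPM in tumor. Both tumor IR groups were below all other groups. It had a log2 ratio of -0.89 (95% interval -1.18 to -0.62) in WT and -1.32 (95% interval -1.56 to -1.08) in cKO. Ndufaf5, which modifies a core subunit, was at 3.32, 3.61, 3.65 and 3.93 CPM in blood and 7.71, 8.09, 4.33 and 3.99 CPM in tumor, with -0.83 (95% interval -1.21 to -0.46) and -1.01 (95% interval -1.37 to -0.67). Ndufaf2 had -0.65 and -0.98, and Ndufaf7 had -0.63 and -0.97. Of the 8 factors, 4 were lower in WT and 5 in cKO, where Ndufaf6 joined at -1.33 (background 14.7% and 29.3% of all genes lower). Ndufaf3 went the other way, at 0.17 and 0.38, and Ndufaf8 was at -0.19 and -0.26. The median of the 8 was -0.53 in WT and -0.97 in cKO, beside -0.21 and -0.28 for complex I and -0.11 and -0.035 for complex IV.

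The other members called lower in tumor cKO were Atp5g2 (-0.86), Atp5a1 (-0.69), the alpha subunit of complex V, and the complex I members Ndufa12 (-0.75), Ndufv1 (-0.81), Ndufa10 (-0.75), Ndufab1 (-0.68), Ndufs7 (-0.67) and Ndufb4 (-0.61). Ndufa4l2 was lower in WT (-1.26 (95% interval -1.91 to -0.68)) and higher in cKO (0.61 (95% interval 0.060 to 1.19)) on 112 and 118 UMIs. The highest members in WT were Ndufs4 (0.20), Ndufaf3 and Ndufa3 (0.11), and after Ndufa4l2 the highest in cKO were Ndufaf3 and Ndufa3 (0.32).

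**Figure D5:**
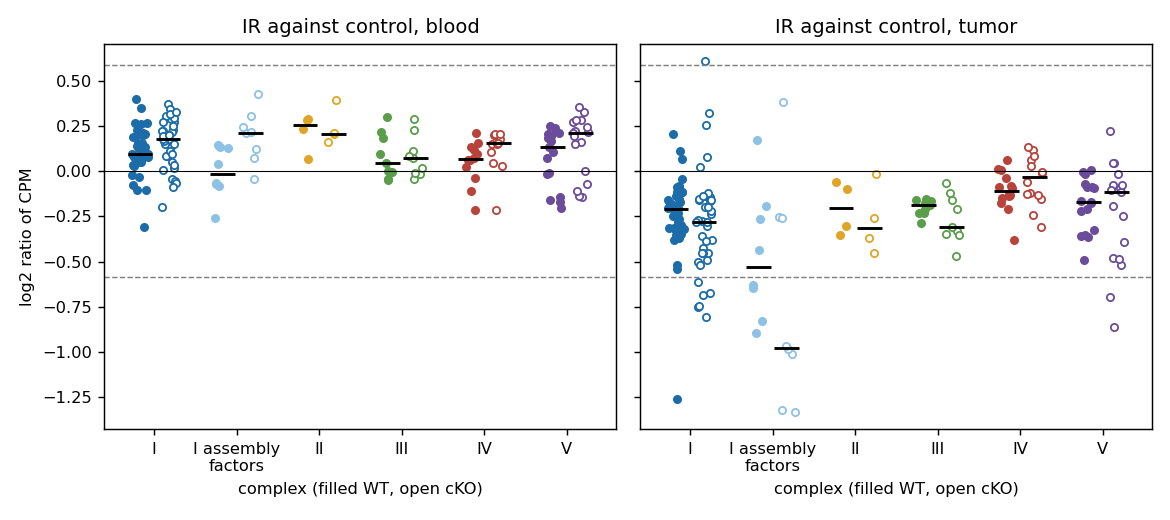
Log2 ratios of CPM, IR over control, are shown for the members compared, by complex, in blood (left) and tumor (right), filled for WT and open for cKO, with medians as black bars and 1.5-fold dashed. Blood members stayed inside the dashed lines, and tumor assembly factors had medians of -0.53 and -0.97.

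Other cells moved with the tumor IR contrast. Fibroblast or carcinoma cell-like barcodes held 7.37% and 14.3% of gene UMIs in tumor control WT and cKO and 4.73% and 3.05% in tumor IR, and their assembly factor level was 202 to 217 CPM in sum against 108 to 171 in classical monocyte-like and macrophage-like cells. Cells in no class moved the same way, with 26.0% and 26.7% of gene UMIs in control tumors (WT, cKO) against 14.7% and 13.2% in irradiated ones. Their assembly factor level was 181 and 191 CPM in control and 144 and 139 CPM after IR, and their part in the ratios over all cells was not tested. Without the fibroblast or carcinoma cell-like class alone, Ndufaf4 was at -0.93 and -1.39, Ndufaf5 at -0.93 and -1.05, and the summed share at -0.17 and -0.22. The interferon-state genes summed to 399 to 895 CPM in the other groups and to 4241 and 4217 CPM in tumor IR. Cycling-state genes summed to 378 and 850.4 CPM in control tumors (WT, cKO) and 311 and 165 in irradiated ones. Under TMM factors, which set the typical gene to no change, the summed tumor ratios were -0.015 and -0.0080, and 3 and 8 members were called. The part of interferon and cycling genes in the ratios over all cells was not tested.

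The IR ratios were also taken within the larger classes. In blood classical monocyte-like cells the summed ratio was 0.078 (95% interval 0.070 to 0.087) in WT and 0.047 (95% interval 0.037 to 0.056) in cKO. In blood neutrophil-like cells it was -0.025 (95% interval -0.036 to -0.014) and -0.0069 (95% interval -0.020 to 0.0065). In tumor classical monocyte-like cells it was -0.10 (95% interval -0.11 to -0.086) and -0.14 (95% interval -0.15 to -0.12), with 2 of 85 and 2 of 83 members lower (background 4.42% and 7.44%). Those were Ndufaf7 in both labels (-0.82 and -0.59), Ndufaf4 in WT (-0.64) and Ndufv1 in cKO (-0.59).

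In tumor macrophage-like cells the ratio was -0.17 (95% interval -0.18 to -0.16) in WT and -0.26 (95% interval -0.27 to -0.25) in cKO, with 0 of 83 and 14 of 88 members lower (background 9.71% and 17.5%). In cKO these were Ndufaf4 (-1.32), Ndufaf7 (-1.27), Ndufaf6, Ndufaf2, Ndufaf5, Atp5g2, Atp5a1, Atp5g3, Ndufs1, Ndufs8, Ndufa10, Ndufa12, Ndufs7 and Uqcr11. In WT, Ndufaf2 (-0.56) and Ndufaf4 (-0.56) were the lowest of the 83 compared and just short of 1.5-fold. So 5 of the 8 assembly factors were among the 14.

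Inside the tumor classes, the OXPHOS share differed with the level of interferon and cycling genes, though not steadily in every group. In tumor IR classical monocyte-like cells of WT label, the share was 1.94% in cells with 0 interferon-state UMIs. It was 2.09% in cells with above 0 and up to 10 per 10000, 1.91% from 10 to 50 and 1.71% above 50. In cKO label it was 2.08%, 2.04%, 1.93% and 1.73%. Cells with most interferon genes thus had the lowest share in both labels. Control tumor cells of this class gave 2.03, 2.11, 1.92 and 1.55% in WT label over the same ranges. In cKO label they gave 2.13, 2.08 and 2.12% over the ranges up to 50 interferon-state UMIs. In cells with at most 5 such UMIs per 10000, the IR ratio in classical monocyte-like cells was 0.0029 (95% interval -0.014 to 0.020) in WT and -0.050 (95% interval -0.068 to -0.031) in cKO, and in macrophage-like cells it was -0.15 (95% interval -0.17 to -0.13) and -0.23 (95% interval -0.25 to -0.22). In cells with few cycling genes, the ratios were -0.10 and -0.14 in classical monocyte-like and -0.15 and -0.22 in macrophage-like cells.

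The other lists in tumor after IR stand beside a background of 14.7% (WT) and 29.3% (cKO) of all genes lower. Of all genes, 5.91% and 12.4% were higher, and their medians were -0.14 and -0.18. The mitochondrially encoded OXPHOS genes were called in neither direction (0 of 13 in both labels, medians -0.054 and -0.21). Mitochondrial ribosomal protein genes were lower for 7 and 32 of 78 (medians -0.32 and -0.52), and cytosolic ribosomal protein genes for 17 and 41 of 91 (medians -0.47 and -0.56). TCA cycle genes were lower for 2 and 5 of 13. Assembly factors outside the rule were lower for 3 and 13 of 35 and higher for 2 and 2. Regulators of mitochondrial genes were lower for 3 of 9 and 7 of 12, and Tfam, a packaging factor of mitochondrial DNA, was at 19.1, 17.7, 19.2 and 21.9 CPM in blood and 17.8, 19.4, 11.7 and 11.9 CPM in tumor. Electron carriers such as cytochrome c were lower for 1 of 8 in both. Glycolysis genes had medians of 0.050 and 0.17, with 1 and 2 higher and 1 lower of 16. In blood, 0 genes were higher in any of these 8 lists, and 1 regulator in WT and 1 cytosolic ribosomal gene in each label were lower.

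Genotype labels were compared within each library. The log2 ratio of the summed share, cKO over WT, was 0.014 (95% interval 0.0080 to 0.021) in blood control, 0.071 (95% interval 0.065 to 0.077) in blood IR, 0.052 (95% interval 0.046 to 0.057) in tumor control and 0.014 (95% interval 0.0083 to 0.020) in tumor IR. As a mean over cells, the blood ratios were -0.013 and -0.0069. In blood control 0 of 87 members were called (background 2.66% higher and 3.55% lower), and in blood IR 0 of 87 (0.757% and 1.81%). In tumor control 0 of 90 were higher and 1 lower (13.2% and 4.51%), and in tumor IR 2 were higher and 0 lower (1.28% and 3.12%). The 1 lower member was Ndufa4l2 (-0.98 (95% interval -1.56 to -0.45)), and the 2 higher ones were Ndufa4l2 (0.88 (95% interval 0.29 to 1.54)) and Cox7a1 (0.61 (95% interval 0.27 to 0.97)). Ndufa4l2 was thus at opposite ends in the 2 tumor libraries. Labels were less clear in tumor. With a 4-fold margin for both hashtags, 1085 of the 2703 cells labelled WT were left in tumor control, the summed ratio was 0.027 in tumor control and 0.037 in tumor IR, so that their order turned, and neither member was called in tumor IR. These contrasts share the control or IR groups of the contrasts above and are not independent of them.

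The remaining extremes were small. In blood control, Ndufs1 (0.42), Ndufv3 (0.25) and Ndufa11 (0.23) were highest and Ndufa12 (-0.24), Ndufaf2 (-0.19) and Ndufaf6 (-0.15) lowest. In blood IR, Ndufaf1 (0.43), Cox6b2 (0.36) and Ndufaf6 (0.35) were highest, and Ndufaf2 (-0.16), Ndufa12 (-0.028) and Cox8a (-0.024) lowest. In tumor control, Ndufaf6 (0.51), Ndufaf4 (0.48) and Ndufaf1 (0.46) were highest, and after Ndufa4l2 the lowest were Cox6b2 (-0.42) and Atp5md (-0.22). In tumor IR, Ndufaf1 (0.47) followed the 2 called members, and Ndufaf6 (-0.39), Cox6b2 (-0.27) and Ndufa4 (-0.20) were lowest.

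Within classes the genotype ratios were of either sign. Blood neutrophil-like cells had -0.15 (95% interval -0.16 to -0.13) in control and -0.13 (95% interval -0.14 to -0.11) in IR. Blood classical monocyte-like cells had 0.084 (95% interval 0.074 to 0.094) and 0.053 (95% interval 0.045 to 0.061), and nonclassical monocyte-like cells had 0.047 (95% interval 0.029 to 0.065) and 0.10 (95% interval 0.086 to 0.12). In tumor, classical monocyte-like cells had 0.053 (95% interval 0.038 to 0.067) in control and 0.013 (95% interval 0.0044 to 0.022) in IR, and macrophage-like cells had 0.079 (95% interval 0.070 to 0.088) and -0.017 (95% interval -0.029 to -0.0052). Cells rich in granule genes (Camp, Ngp, Ltf and Lcn2 above 50 UMIs per 10000), a sign of younger neutrophils, were 640 of 2746 neutrophil-like cells in blood control cKO and 159 of 3518 in WT, and the OXPHOS share was 0.852% and 0.865% in them against 1.27% and 1.26% in cells with at most 10. Split at that 50, the control ratio was -0.022 and -0.048 in the granule-rich and granule-poor cells, and the IR ratio was -0.24 and -0.12.

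Few genes of the other lists were called between genotype labels, at most 2 higher and 1 lower per list in any library. Mitochondrially encoded OXPHOS genes took 1.06, 1.18, 1.09 and 1.21% in blood and 1.47, 1.77, 1.44 and 1.57% in tumor, higher in cKO than in WT label in all 4 libraries, with 0 of 13 genes called in any. The nuclear members were higher in cKO in all 4 as well, by less, though under TMM factors their ratios in tumor were -0.013 and -0.0066. As a mean over cells their blood ratios reversed, as given above. Blood neutrophil-like cells (control, IR) had -0.15 and -0.13, and blood classical monocyte-like cells 0.084 and 0.053. The mitochondrially encoded share of blood neutrophil-like cells was 0.346% (WT) and 0.367% (cKO) in control, and 0.354% and 0.300% after IR.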

How the data were processed

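Cells of 4 libraries (10x 3′ chemistry with TotalSeq hashtags) had been counted by the authors with Cell Ranger 6.0.1 on mm10, and the deposited raw matrices hold UMI counts per gene and barcode before cell calling (their headers name Cell Ranger 4). The study's own cell calls and annotation (Seurat 4.0.6) were not used here. Barcodes with at least 500 gene UMIs, 200 genes, at most 25% mitochondrial UMIs and 20 hashtag UMIs were kept. A barcode was labelled WT where B0301 was at least equal to B0302, and cKO where B0302 was at least 4 times B0301. The 507, 401, 431 and 501 barcodes in between were left out. No doublet caller was run. Barcodes past several of the neutrophil, fibroblast or carcinoma, NK, T, B and dendritic cell gates were set aside as mixed. So were those past the macrophage gate and any of these gates except the dendritic one. Any other overlap was kept in a single class by a fixed order. In it these gates came before macrophage, then nonclassical monocyte, then classical monocyte. Gates on marker UMIs per 10000 were 100 (neutrophil), 20 (macrophage and NK cell), 5 (nonclassical monocyte) and 10 (other classes), with at least 3 marker UMIs, and were set after the data were examined.

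Counts were summed per group. Intervals (95%) are exact Poisson for shares and exact conditional binomial for ratios, and the call was tested on simulated data. Members, lists and contrasts were chosen with earlier results of these data known. Genes named are the 2 members of each complex with most UMIs, all complex II genes, the alternative subunits, the 3 highest and 3 lowest members per contrast and those called in at least 3 of 4 contrasts. Others, among them those singled out in cell classes, were chosen after their values were seen. Alternatives were TMM factors (edgeR 4.0.16, R 4.3.3), other minimums, denominators, margins, gates and class mixes. Other steps used Python 3.11.15, scipy 1.17.1 and pandas 2.3.3. Gene positions are from GENCODE vM21.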

Additional observations from a re-analysis of the deposited data

Results flagged for a closer look

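The IR ratio of the summed OXPHOS share had opposite signs in the 2 tissues. On the log2 scale it was 0.057 in blood and -0.16 in tumor for cells labelled WT, and 0.11 in blood and -0.20 in tumor for cells labelled cKO. As a mean over cells both tissues had the same sign (-0.035 and -0.029 in blood, -0.22 and -0.22 in tumor), and under TMM factors the tumor ratios were -0.015 and -0.0080. The tumor-to-blood ratio likewise differed in sign between treatments, at 0.17 (WT) and 0.21 (cKO) in control and -0.046 and -0.10 after IR. That difference in sign was not seen as a mean over cells, where all 4 ratios were above 0 (0.44, 0.49, 0.26 and 0.30), nor with the same class mix (-0.19, -0.14, -0.43 and -0.47) or without neutrophil-like cells (-0.20, -0.21, -0.43 and -0.49), where all 4 were below 0. The same class mix covered 83.8 to 93.6% of tumor UMIs and matched tumor macrophage-like cells with unnamed blood cells. Both patterns rest on the same 8 sums. Between genotype labels, the ratio of cKO to WT had opposite signs in the 2 main blood classes. It was -0.15 in neutrophil-like and 0.084 in classical monocyte-like cells of blood control, and -0.13 and 0.053 in those of blood IR. With 1 sample per group, none of these differences was tested.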

How the results depend on the processing

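The ratios and counts below are those that moved by more than their counting interval (ratios) or by over 1.5 times (counts). They kept their direction unless said otherwise, and the cause was not tested. Under TMM factors the log2 ratio was 0.032, 0.050, -0.015 and -0.0080 in blood WT, blood cKO, tumor WT and tumor cKO for IR against control, 0.029, -0.013 and -0.0066 in blood IR, tumor control and tumor IR for cKO against WT, 0.047, 0.022, -0.00066 and -0.037 in control WT, control cKO, IR WT and IR cKO for tumor against blood, and the number of members called was 3 and 8 in tumor WT and tumor cKO for IR against control. The tumor genotype ratios reversed. As a mean over cells the log2 ratio was -0.035, -0.029, -0.22 and -0.22 in blood WT, blood cKO, tumor WT and tumor cKO for IR against control, -0.013, -0.0069, 0.039 and 0.035 in blood control, blood IR, tumor control and tumor IR for cKO against WT, 0.44, 0.49, 0.26 and 0.30 in control WT, control cKO, IR WT and IR cKO for tumor against blood. The blood ratios for IR and genotype and the IR ratios for tissue reversed. With the same class mix in both groups the log2 ratio was 0.027, 0.026, -0.13 and -0.18 in blood WT, blood cKO, tumor WT and tumor cKO for IR against control, 0.0087 and 0.0017 in blood IR and tumor IR for cKO against WT, -0.19, -0.14, -0.43 and -0.47 in control WT, control cKO, IR WT and IR cKO for tumor against blood. The control ratios for tissue reversed. Without neutrophil-like cells, an alternative chosen after seeing the data, the log2 ratio was 0.10, 0.10, -0.14 and -0.18 in blood WT, blood cKO, tumor WT and tumor cKO for IR against control, 0.059, 0.060 and 0.0023 in blood control, blood IR and tumor IR for cKO against WT, -0.20, -0.21, -0.43 and -0.49 in control WT, control cKO, IR WT and IR cKO for tumor against blood. The control ratios for tissue reversed. With mitochondrially encoded and ribosomal protein genes taken out of the denominator the log2 ratio was 0.041, -0.26 and -0.32 in blood WT, tumor WT and tumor cKO for IR against control, 0.083 and 0.077 in blood IR and tumor control for cKO against WT, 0.27, 0.34 and -0.033 in control WT, control cKO and IR WT for tumor against blood. With a 4-fold margin for both hashtags (within classes chosen after seeing the data) the log2 ratio was -0.21 in tumor WT for IR against control, 0.0052, 0.063, 0.027 and 0.037 in blood control, blood IR, tumor control and tumor IR for cKO against WT, 0.19 and -0.076 in control WT and IR WT for tumor against blood, -1.20 and -1.30 in blood control WT and blood IR WT for neutrophil-like against classical monocyte-like, -0.38 and -0.58 in control WT and IR WT for classical monocyte-like, tumor against blood, -0.12 in tumor WT for classical monocyte-like, IR against control, -0.19 in tumor WT for macrophage-like, IR against control, and the number of members called was 0 in tumor IR for cKO against WT. With at least 2000 UMIs per barcode the log2 ratio was -0.15 and -0.19 in tumor WT and tumor cKO for IR against control, 0.15, 0.19, -0.058 and -0.12 in control WT, control cKO, IR WT and IR cKO for tumor against blood. With stricter gates the log2 ratio was -1.17, -1.40, -1.33 and -1.51 in blood control WT, blood control cKO, blood IR WT and blood IR cKO for neutrophil-like against classical monocyte-like, -0.32, -0.52 and -0.56 in control WT, IR WT and IR cKO for classical monocyte-like, tumor against blood, -0.12, -0.12 and 0.065 in tumor WT, tumor cKO and blood cKO for classical monocyte-like, IR against control, -0.27 in tumor cKO for macrophage-like, IR against control. With neutrophil-like cells of at most 6000 UMIs, chosen after seeing the data, the log2 ratio was -1.34, -1.57, -1.46 and -1.60 in blood control WT, blood control cKO, blood IR WT and blood IR cKO for neutrophil-like against classical monocyte-like. With neutrophil gate genes also out of the denominator, chosen after seeing the data, the log2 ratio was -1.16, -1.26 and -1.41 in blood control WT, blood control cKO and blood IR cKO for neutrophil-like against classical monocyte-like. With calls at 2-fold the number of members called was 1 and 3 in tumor WT and tumor cKO for IR against control, 0 and 0 in tumor control and tumor IR for cKO against WT, 13, 17, 5 and 6 in control WT, control cKO, IR WT and IR cKO for tumor against blood. With no UMI minimum the number of members called was 2 and 3 in blood WT and blood cKO for IR against control, 3, 2 and 4 in blood control, blood IR and tumor IR for cKO against WT. All 12 counts with a minimum of 20 UMIs, all 12 ratios at no more than 10% mitochondrial UMIs and all 12 ratios without barcodes kept in more than 1 library (chosen after seeing the data) stayed within those limits. No paired analysis was possible because each group is 1 sample. No replicate could be left out. Intervals cover counting error only, so spread between mice is unknown.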

Other observations

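The OXPHOS share also followed cycling genes inside classes. In tumor control macrophage-like cells labelled cKO, it was 2.04% in cells without a UMI of the cycling genes (Mki67, Top2a and others), 2.26% up to 5 such UMIs per 10000, 2.43% from 5 to 20 and 2.45% above 20. Blood classical monocyte-like cells after IR gave 2.62, 2.79 and 3.13% (WT) and 2.68, 2.85 and 3.21% (cKO) over the first 3 of these ranges. The highest range of the 3 held 35 and 73 cells.

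Macrophage-like cells of tumor IR gave 1.90, 1.95, 1.94 and 1.67% (WT) and 1.80, 1.94, 1.87 and 1.75% (cKO) in cells with 0, up to 10, 10 to 50 and above 50 interferon-state UMIs per 10000. In both labels the cells above 50 had the lowest value. In blood neutrophil-like cells after IR, the share was 1.26, 0.955 and 0.971% (WT) and 1.15, 0.913 and 0.821% (cKO) in cells with up to 10, 10 to 50 and above 50 granule-gene UMIs per 10000. Numbers of UMIs per cell differed between these ranges, and their part in these values was not tested.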
